A study of Mus musculus with 4 samples.

Results

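The Hox gene clusters of the mouse were examined for accessible chromatin in NMuMG, a long-used cell line from the mammary gland epithelium of normal mice. Members were all protein-coding genes of the GENCODE vM1 annotation (mouse genome build mm9) with a symbol of Hoxa, Hoxb, Hoxc or Hoxd followed by a number. There were 40 such gene records among the 22350 protein-coding genes of chromosomes 1 to 19 and X. They carried 39 symbols, because Hoxa3 had 2 records. The Hoxa cluster held 12 records on chromosome 6, the Hoxb cluster 10 on chromosome 11, the Hoxc cluster 9 on chromosome 15 and the Hoxd cluster 9 on chromosome 2. The label of the group held in the annotation, since the members lay in 4 compact spans of 106, 174, 116 and 96.8 kb.

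Accessibility had been mapped by ATAC-seq, in which the transposase Tn5 inserts sequencing adapters into open DNA. The labels give 4 samples of the same line, 1 in each group, none of them carrying a genetic change. Cells in complete medium, with serum and insulin, received vehicle (dilute HCl with albumin) or TGFβ1 at 5 ng/ml for 2 h. Cells deprived of serum and insulin for 6 h received vehicle or TGFβ1 at 5 ng/ml for 10 min. The data were 3 peak lists. The vehicle 2 h and TGFβ 2 h lists belong to 1 sample each. The 10 min samples are both labelled with 1 common list, which was therefore treated as the list of the 10 min experiment and of neither condition. The name of that list refers to TGFβ at 10 min, and which libraries its peaks were called from was not settled. The characteristics of the TGFβ sample in that experiment state 2 h, and its title, which was followed here, states 10 min.

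Hox genes encode homeodomain transcription factors that give cells their position along the head to tail axis and in the limbs. Their order along each cluster follows their order of expression along that axis, with paralog group 1 at the anterior and group 13 at the posterior end. Where the genes are silent, the clusters are a textbook target of Polycomb repression, and Trithorax proteins act against it. Several paralogs, Hoxa9, Hoxb9 and Hoxd9 among them, are known from mouse mutants for their part in mammary gland development.

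After intervals under 150 bp were dropped and neighbours with a gap under 1000 bp were merged, the lists held 19648 (vehicle), 38532 (TGFβ) and 26732 (10 min) regions. A region was counted at a gene when it lay within 1000 bp of the transcription start site (TSS) of any of its transcripts. Each region carries the authors' score, a scaled irreproducible discovery rate that ranges from 540 to a cap of 1000 and is highest for the most reproducible peaks. Scores are read within a list only. The lists hold no read counts, so depth cannot be read from them. The study's reporting summary gives read totals, with fewer filtered reads for the TGFβ than for the vehicle library in complete medium. Their part in the lengths of the lists was not tested. Since each condition has 1 list, conditions could not be tested against each other. Intervals beside shares are 95% Wilson intervals. They cover counting alone, and genes of a cluster are not independent. A list from bulk cells also cannot tell a site open in few cells from a site that is weakly open in many. The labelled cell type was checked with 11 epithelial markers, of which the keratins Krt8, Krt18 and Krt19 and the epithelial factor Grhl2 were called at the TSS throughout. Epcam, Krt7, Cldn3, Cldn7 and Esrp1 had none in any list, Cdh1 had one in the 10 min list alone and Cldn4 in the TGFβ list alone. Epithelial markers were thus called at 36.4% (vehicle), 45.5% (TGFβ) and 45.5% (10 min). Over all protein-coding genes the shares were 41, 47.6 and 46.3%, so the epithelial markers did not stand out from genes in general. Of 12 markers of blood, endothelium, muscle and neurons, Snap25 in the TGFβ list was the exception to an absence from every list.

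The regions on which the results turn are shown first, in mm9 coordinates and read 5′ to 3′ on the strand of the nearby Hox gene, with bases of annotated untranslated regions left out. Capitals mark the SMAD motif CAGACA or its reverse complement TGTCTG, the only searched motif found in the bases printed. The first 3 are TGFβ regions at Hox promoters. They are the upstream bases of the Hoxa5 region (chr6:52154587-52154720, minus strand) and of the Hoxa7 region (chr6:52171854-52171917, minus strand), and the Hoxb1 region (chr11:96227165-96227424, plus strand).
Hoxa5 region: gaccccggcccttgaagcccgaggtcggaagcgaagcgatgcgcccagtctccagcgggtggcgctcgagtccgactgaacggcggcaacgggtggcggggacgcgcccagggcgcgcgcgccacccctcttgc
Hoxa7 region: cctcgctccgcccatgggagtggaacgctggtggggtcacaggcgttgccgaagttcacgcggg
Hoxb1 region: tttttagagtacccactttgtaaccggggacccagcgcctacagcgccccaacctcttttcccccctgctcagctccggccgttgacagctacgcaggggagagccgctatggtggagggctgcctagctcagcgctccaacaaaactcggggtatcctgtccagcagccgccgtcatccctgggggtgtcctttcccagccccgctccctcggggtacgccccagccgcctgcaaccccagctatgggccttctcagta

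The other 3 lie away from Hox promoters, and each was called in a single list. They are the widest TGFβ region of the Hoxc window (chr15:102721416-102721622, plus strand), the TGFβ region in an intron of Hoxd3 (chr2:74553901-74554170, plus strand) and the centre of the only vehicle region with no TGFβ counterpart, beyond the Hoxb cluster (chr11:96274945-96275244, plus strand).
Hoxc flank region: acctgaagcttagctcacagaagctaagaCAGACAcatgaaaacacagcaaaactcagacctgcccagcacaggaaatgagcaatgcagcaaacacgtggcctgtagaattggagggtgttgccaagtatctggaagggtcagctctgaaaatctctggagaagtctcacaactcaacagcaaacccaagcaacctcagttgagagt
Hoxd3 intron region: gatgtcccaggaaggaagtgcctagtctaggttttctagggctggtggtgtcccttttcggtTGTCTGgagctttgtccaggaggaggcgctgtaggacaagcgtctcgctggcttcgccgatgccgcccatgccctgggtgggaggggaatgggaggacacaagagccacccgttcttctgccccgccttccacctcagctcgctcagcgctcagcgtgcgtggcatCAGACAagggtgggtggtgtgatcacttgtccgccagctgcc
Hoxb flank region: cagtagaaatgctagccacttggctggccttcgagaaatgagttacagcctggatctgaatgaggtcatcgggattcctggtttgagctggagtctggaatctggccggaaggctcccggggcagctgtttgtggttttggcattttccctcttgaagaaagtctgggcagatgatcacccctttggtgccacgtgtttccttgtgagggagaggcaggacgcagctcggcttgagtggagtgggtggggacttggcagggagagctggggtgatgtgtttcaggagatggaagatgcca
The bases printed for the Hoxa5 promoter had a GC content of 74.6% and a CpG frequency of 1.07 times that expected from the base composition. The Hoxc flank region stood at the other end, with 47.8% GC, 1 CpG in 207 bases and a CpG observed/expected ratio of 0.0846.

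Few Hox promoters carried a region in any list. In the vehicle list 1 of the 40 records had a region at the TSS (2.5%, interval 0.443 to 12.9%). In the TGFβ list there were 4 (10%, 3.96 to 23.1%), Hoxa5, Hoxa7 and Hoxb1 among them. In the 10 min list there were 3 (7.5%, 2.58 to 19.9%), Hoxa5 and Hoxa7 among them. Among all protein-coding genes the share with a region at the TSS was 41% for vehicle, 47.6% for TGFβ and 46.3% for the 10 min experiment, above the upper bound of the Hox interval in each. A region in all 3 lists was seen for 1 record (2.5%, against 39.9% of all genes), and 36 records had none in any list, against 50.4% of all genes. The 3 genes with a region in the TGFβ and not the vehicle list, Hoxa5, Hoxa7 and Hoxb1, were 3 of 40 records, and the same pattern was seen in 7.24% of all genes, a share near that of the Hox genes.

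Hoxa5, a central paralog known for its part in lung and mammary gland development, had no vehicle region within 45534 bp of its TSS. The TGFβ list placed a region of 335 bp over it (chr6:52154386-52154720, score 939) and the 10 min list one of 351 bp that began at the same base (chr6:52154386-52154736, score 690). The TGFβ region scored above the median of the list's regions, which was 914, unlike those of Hoxa7 and Hoxb1. It also kept its call when the TGFβ list was reduced to as many top-scoring regions as the vehicle list holds, whereas Hoxa7 and Hoxb1 did not.

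Hoxa7, which takes part in patterning of the trunk skeleton, had a TGFβ region of 196 bp (chr6:52171722-52171917, score 874) and a 10 min region of 418 bp (chr6:52171539-52171956, score 690). The nearest vehicle region was 58399 bp away. Both regions lay at the most upstream of the 5 annotated start sites and not at the main one at position 52167504, so the gene carried no call when a single transcript per gene was used.

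Hoxb1, another anterior factor of the hindbrain, had a region in the TGFβ list alone. It covered 260 bp of the first coding exon and began 99 bp after the TSS (chr11:96227165-96227424, score 671, above 19.8% of the list). A further TGFβ interval of 102 bp lay over the TSS itself and fell under the width minimum. The nearest vehicle region was 47327 bp and the nearest 10 min region 86708 bp from the TSS.

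**Figure D1:**
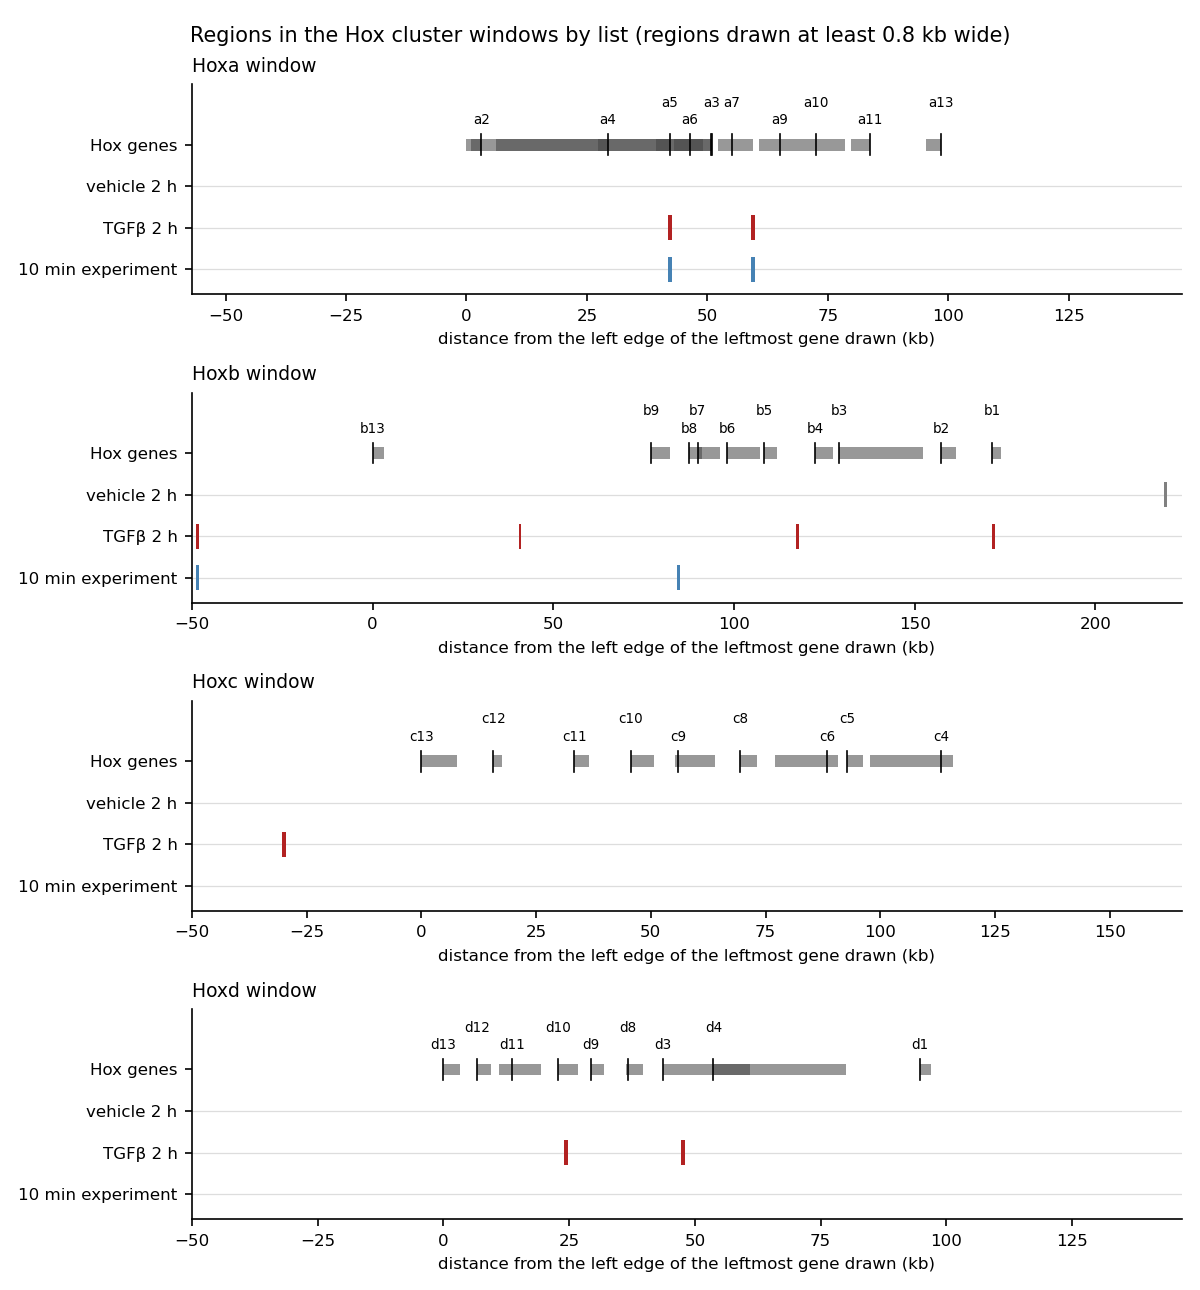
Positions of regions in the 4 Hox windows, with distance in kb from the left edge of the leftmost gene drawn on the x axis. Grey bars are Hox genes with a black tick at the main TSS (the label is the gene symbol without Hox), and coloured bars are regions of the vehicle, TGFβ and 10 min lists, drawn at least 0.8 kb wide, with 1 of the 12 loci and its gene left out. The Hoxc window held 1 region, in the TGFβ list and outside the gene span, and the Hoxd window held regions in the TGFβ list alone.

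Hoxa2, Hoxa3, Hoxa4, Hoxa6, Hoxa9, Hoxa10, Hoxa11 and Hoxa13 had no region at the TSS in any list. Hoxa2 lay 6360 bp from the nearest vehicle region. The Hoxa3 records lay 54283 and 13596 bp from a vehicle region and 8384 and 8346 bp from a TGFβ region. Hoxa4 lay 12634 bp and Hoxa6 4001 bp from the nearest TGFβ region, and a TGFβ interval of 96 bp that was dropped for its width lay 89 bp from the Hoxa6 TSS. Hoxa9, Hoxa10, Hoxa11 and Hoxa13, the posterior genes that pattern the limb and the reproductive tract, lay at 4233, 11406, 23877 and 38879 bp from the TGFβ region of Hoxa7, the distance growing gene by gene. The nearest vehicle region was 67098 to 101744 bp away from the same 4 genes.

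In the Hoxb cluster, Hoxb2, Hoxb3, Hoxb4, Hoxb5, Hoxb6, Hoxb7, Hoxb8, Hoxb9 and Hoxb13 had no region at the TSS in any list. The vehicle list held no region anywhere in the gene span, and its members lay 47.3 to 131 kb from the nearest one. In the TGFβ list a region of 202 bp (chr11:96173022-96173223, score 588) lay 4775 bp upstream of Hoxb4, a factor known from blood stem cells. Another of 181 bp (chr11:96096315-96096495, score 603) lay in the wide gap between Hoxb13 and Hoxb9, 36276 bp from the latter. The 10 min list instead held a region of 182 bp (chr11:96140177-96140358, score 541, the lowest of the Hox regions in that list) 2861 bp upstream of Hoxb8. At the outer edge of the window, in an intron of the tubulin polyglutamylase gene Ttll6, the TGFβ list held 189 bp (chr11:96007023-96007211) and the 10 min list 185 bp (chr11:96007024-96007208).

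The Hoxc cluster was the barest. None of Hoxc4, Hoxc5, Hoxc6, Hoxc8, Hoxc9, Hoxc10, Hoxc11, Hoxc12 and Hoxc13 had a region at the TSS in any list, and the gene span held 0 regions in every list. The vehicle and 10 min lists as deposited, before any width filter, held 0 lines in the whole window of 216 kb. The TGFβ list held 1, the intergenic region of 207 bp shown above (score 640), 29912 bp before Hoxc13, a gene needed for hair and nails. Distances from a Hoxc TSS to the nearest region ran from 81.1 to 154 kb (vehicle), from 29.9 to 128 kb (TGFβ) and from 102 to 172 kb (10 min).

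The Hoxd cluster likewise had no region at the TSS of Hoxd1, Hoxd3, Hoxd4, Hoxd8, Hoxd9, Hoxd10, Hoxd11, Hoxd12 or Hoxd13 in any list, and 0 deposited lines in the vehicle and 10 min lists over its window of 197 kb. The TGFβ list held 2 regions there, both inside the gene span. One of 158 bp (chr2:74530733-74530890, score 768) lay in a coding exon of Hoxd10, which acts in limb and spinal motor neuron patterning, 1586 bp after its TSS, and so counted for Hoxd10 when the TSS window was widened to 2000 bp. The other, of 270 bp (chr2:74553901-74554170, score 700), lay in an intron of Hoxd3. In the TGFβ list the distance to the nearest region was thus 3915 bp for Hoxd3, 4847 bp for Hoxd9 and 5865 bp for Hoxd4, but 24366 bp for Hoxd13 and 46867 bp for Hoxd1 at the cluster's ends. In the vehicle list the same cluster's genes lay 62.6 to 120 kb from a region, and in the 10 min list 62.7 to 121 kb.

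**Figure D2:**
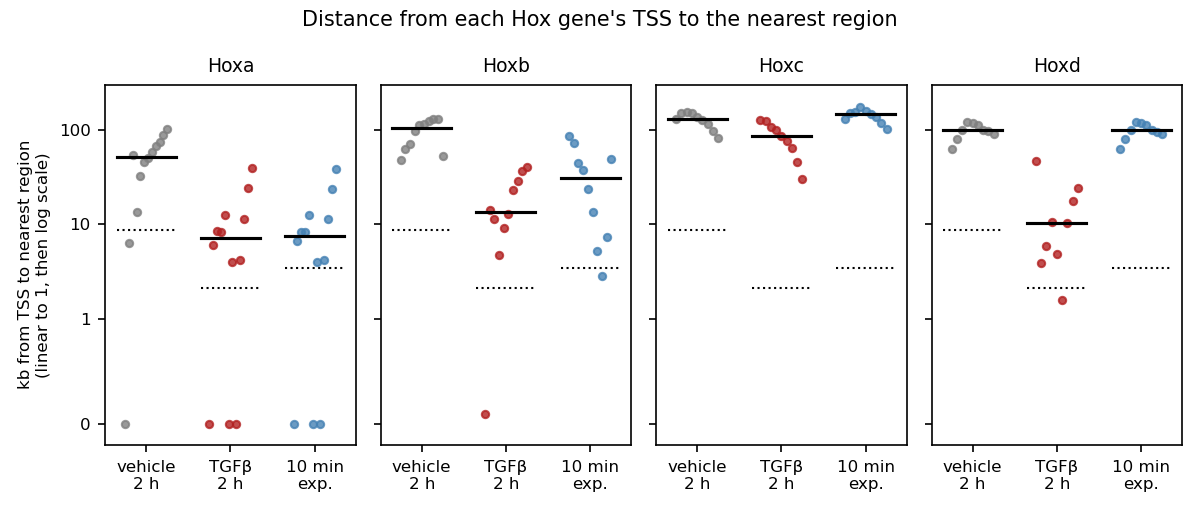
Distance in kb (y axis, linear up to 1 and logarithmic above) from each Hox gene's nearest TSS to the nearest region, by cluster and list (x axis). Points are gene records, solid lines their medians and dotted lines the medians over all protein-coding genes (8.77, 2.12 and 3.44 kb). Hoxa and Hoxd genes lay nearer to regions of the TGFβ list (medians 7.16 and 10.2 kb) than Hoxc genes (85.2 kb).

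Over all 40 records the median distance from a TSS to the nearest region was 96.2 kb for vehicle, 12.7 kb for TGFβ and 55.6 kb for the 10 min experiment. Over all protein-coding genes the medians were 8.77, 2.12 and 3.44 kb. The Hoxa medians were 52.0, 7.16 and 7.46 kb, the Hoxb medians 104, 13.5 and 30.6 kb, the Hoxc medians 129, 85.2 and 148 kb and the Hoxd medians 98.5, 10.2 and 98.6 kb. The Hoxa genes therefore had like distances in the TGFβ and 10 min lists, while the Hoxd genes had like distances in the vehicle and 10 min lists.

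By position along the clusters the counts were too small to set groups apart. Of the 16 posterior genes, paralog groups 9 to 13, none had a region at the TSS in any list (0%, interval 0 to 19.4%). Of the 15 central genes, groups 4 to 8, there were 0 in the vehicle list and 2 in each of the others, Hoxa5 and Hoxa7 (13.3%, 3.74 to 37.9%). Of the 9 anterior records, groups 1 to 3, there was 1 in the vehicle and 10 min lists (11.1%, 1.99 to 43.5%) and 2 in the TGFβ list (22.2%, 6.32 to 54.7%). These intervals overlap one another.

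The Hox promoters were not poor in CpG dinucleotides, the sequence class that most often carried a region in these lists. Within 500 bp of the main TSS, 24 of the 40 records (60%) had a CpG observed/expected ratio of at least 0.6, called CpG-rich here. Of all protein-coding genes 46.2% were CpG-rich. The region call used any TSS of a gene, and for Hoxa7 the region did not lie at the main one. Among all CpG-rich protein-coding genes a region lay at the TSS of 70.6% (vehicle), 78.2% (TGFβ) and 77.4% (10 min). Among the 24 CpG-rich Hox records there was 1 in the vehicle list (4.17%, interval 0.739 to 20.2%) and 3 in each of the TGFβ and 10 min lists (12.5%, 4.34 to 31.0%). Hoxa13 and Hoxd8 are examples of the rest, with ratios of 0.95 and 0.91, GC contents of 73.8% and 68% and no region in any list. Hoxb1, with a ratio of 0.43, was the only CpG-poor member with a region.

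The cluster windows, each gene span with 50 kb on either side, covered 892 kb in all. They held 2 vehicle regions, 10 TGFβ regions and 5 regions of the 10 min experiment, of which 1, 8 and 4 lay inside the gene spans. Per Mb this was 2.24, 11.2 and 5.61 regions, against 7.45, 14.6 and 10.1 over the rest of the genome. Regions covered 0.139%, 0.358% and 0.189% of the windows and 0.375%, 0.707% and 0.622% of the rest. In the windows TGFβ regions outnumbered vehicle regions by a ratio of 5, with an exact 95% interval of 1.07 to 46.9 that includes the ratio of 1.96 elsewhere. The ratio rests on 2 vehicle regions. It was 8 without the flanks and 2.5 with flanks of 100 kb. It was 1 when the TGFβ list was cut to its top-scoring regions, as many as the vehicle list holds. Such a cut sets the ratio of the whole lists to 1 by construction, and the ratio outside the windows was not taken under it. The part of the list lengths in the ratio was not tested.

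The region calls fell at 12 loci, of which 1 was common to all lists. A TGFβ region overlapped 1 of the 2 from the vehicle list, against 93.6% of all vehicle regions. The other was an intergenic region of 392 bp (chr11:96274899-96275290, score 601) 47327 bp beyond Hoxb1. A vehicle region overlapped 1 of the 10 from the TGFβ list (10%, interval 1.79 to 40.4%), against 47.6% of the whole list, and a region of the 10 min list overlapped 4 (40%, 16.8 to 68.7%), against 59.8%. Of the 5 regions of the 10 min list, 4 overlapped a TGFβ region (80%, interval 37.6 to 96.4%), against 85.9% of that whole list. Those at Hoxa5, at Hoxa7 and in Ttll6 were among the 4.

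In the TGFβ and 10 min lists the Hox regions were mostly narrow and low in score. The median width of the 10 TGFβ regions was 204.5 bp and their median score 685.5, where the whole TGFβ list had 379 bp and 914. The 5 regions of the 10 min list had medians of 351 bp and 690, against 544 bp and 818. The 2 vehicle regions had a median width of 618 bp, above the 428 bp of their list, and a median score of 793.5 against 889. Of the Hox regions 1 stood at the score cap, in the TGFβ list, which 41.4% of TGFβ regions reached. With peaks below the median score of all deposited peaks of their list left out, the windows held 1 vehicle region, 1 TGFβ region and 0 from the 10 min experiment.

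**Figure D3:**
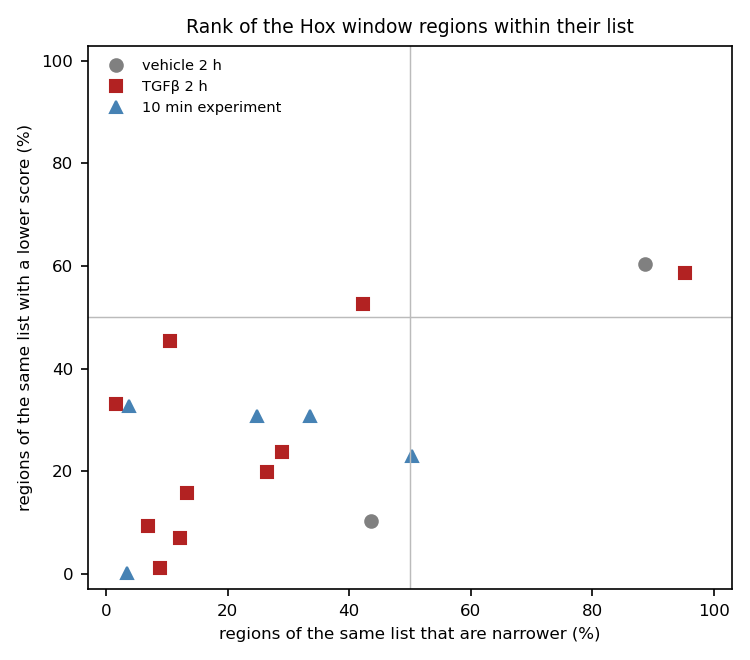
Rank of each region of the Hox windows within its own list, with the percentage of regions that are narrower on the x axis and the percentage that score lower on the y axis. Points are the vehicle (2), TGFβ (10) and 10 min (5) regions, and grey lines mark the middle of a list. A vehicle and a TGFβ region sit at the upper right, and most others at the lower left.

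Long stretches without a region ran through the clusters. In the vehicle list a stretch of 481 kb held the TSSs of 11 of the 12 Hoxa records. It contained 11 CpG-rich protein-coding genes, 9 of them Hox records and the others Evx1 and 5730596B20Rik. No other stretch between the regions of that list held as many. Of its 19628 stretches, 2415 held any CpG-rich gene. The Hoxd cluster lay in a stretch of 246 kb with 8 CpG-rich genes, which ranked 3 in the vehicle list and 2 in the 10 min list. All 10 Hoxb genes lay in a vehicle stretch of 272 kb and all 9 Hoxc genes in stretches of 323 (vehicle), 272 (TGFβ) and 344 kb (10 min). In the TGFβ list the corresponding Hoxa stretch was 284 kb long and held Hoxa9, Hoxa10, Hoxa11 and Hoxa13, and the Hoxd stretch was 114 kb long and held the start sites of Hoxd10, Hoxd11, Hoxd12 and Hoxd13. By number of CpG-rich genes both were tied at rank 7 of the TGFβ list, and the Hoxc stretch was tied at rank 4. Stretches with at least 4 CpG-rich genes numbered 39 (vehicle), 12 (TGFβ) and 14 (10 min), and 3 of them held Hox genes in each list. Histone gene clusters and groups of predicted genes were among the others. How well reads can be mapped in each stretch was not examined, and the ranks take no account of it.

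Of the 44 other annotated gene records that overlapped the windows few had a region at the TSS. Shares over the genome were counted for protein-coding genes alone (41, 47.6 and 46.3%). For the other gene types the counts below therefore have no baseline. The 6 microRNA genes of the clusters, Mir196b, Mir196a-1, Mir10a, Mir196a-2, Mir615 and Mir10b, whose products target Hox transcripts among others, had none in any list. Among the 6 protein-coding neighbours Ttll6 had one, in the 10 min list, and Evx2, the homeobox gene beside Hoxd13, had none. The region at the Ttll6 TSS lay outside the Hoxb window. It is not the region in the Ttll6 intron, which lay 11490 bp from the nearest TSS. The 32 other records were mostly noncoding RNAs and pseudogenes, and included second records of Mir196a-1, Mir10a, Mir196a-2 and Mir615. Of these 32, the counts called were 1 (vehicle), 2 (TGFβ) and 1 (10 min). The antisense gene 1700109F18Rik (Hoxd3os1) had one in the TGFβ list alone, the region in the Hoxd3 intron.

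Genes that work with or on Hox genes were called more often than the Hox genes, at shares near those of CpG-rich genes in general. Of the 9 TALE homeodomain cofactors, which bind DNA with Hox proteins, the vehicle list called 6, the TGFβ list 7 and the 10 min list 8 at the TSS, with Pbx3, Meis1 and Meis2 in all lists and Pknox2 in none. Of 19 Polycomb genes there were 14, 15 and 17, including the histone methyltransferase Ezh2 and its partners Eed and Suz12 in every list, while Cbx7 and Pcgf2 had none. Of 10 Trithorax genes there were 9 in each list, Mll1 (Kmt2a) among them and Kdm6b the exception. The shares in these 3 sets ran from 66.7 to 90%, and in no list did their intervals overlap that of the Hox genes. Over all genes the shares were 41, 47.6 and 46.3%, and over CpG-rich genes 70.6, 78.2 and 77.4%. CpG-rich genes made up 6 of the 9 cofactor, 18 of the 19 Polycomb and 7 of the 10 Trithorax genes, against 46.2% of all protein-coding genes. The shares say whether a promoter was called, not how much of a product was made.

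Homeobox genes outside the clusters were counted in the same way. Of the 9 records of ParaHox and Evx genes, the closest relatives of the Hox genes, 0 had a region in the vehicle list (interval 0 to 29.9%), Cdx2 and Pdx1 had one in the TGFβ list, and Cdx2 in the 10 min list. Of 56 genes of other homeobox families, Dlx, Irx, Lhx and Nkx among them, the vehicle list called 7 (12.5%, 6.19 to 23.6%), the TGFβ list 16 (28.6%, 18.4 to 41.5%) and the 10 min list 11 (19.6%, 11.3 to 31.8%), although 48 of them were CpG-rich. That list was drawn up after the Hox values were seen. Its intervals overlap those of the Hox genes in each list, so a difference between these homeobox families and the clusters was not shown. A region in the TGFβ and not the vehicle list was seen for 10 of the 56, against 7.24% of all genes. Of 7 regulators of Hox transcription, the retinoic acid receptors and Gdf11 among them, 3 had a region in the vehicle list and 6 in each of the others. Over all genes the shares were 41% (vehicle), 47.6% (TGFβ) and 46.3% (10 min). Rara, Rxra and Gdf11, 3 of the 7, were in the TGFβ and not the vehicle list, as were 7.24% of all genes, and Rarb had none.

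**Figure D4:**
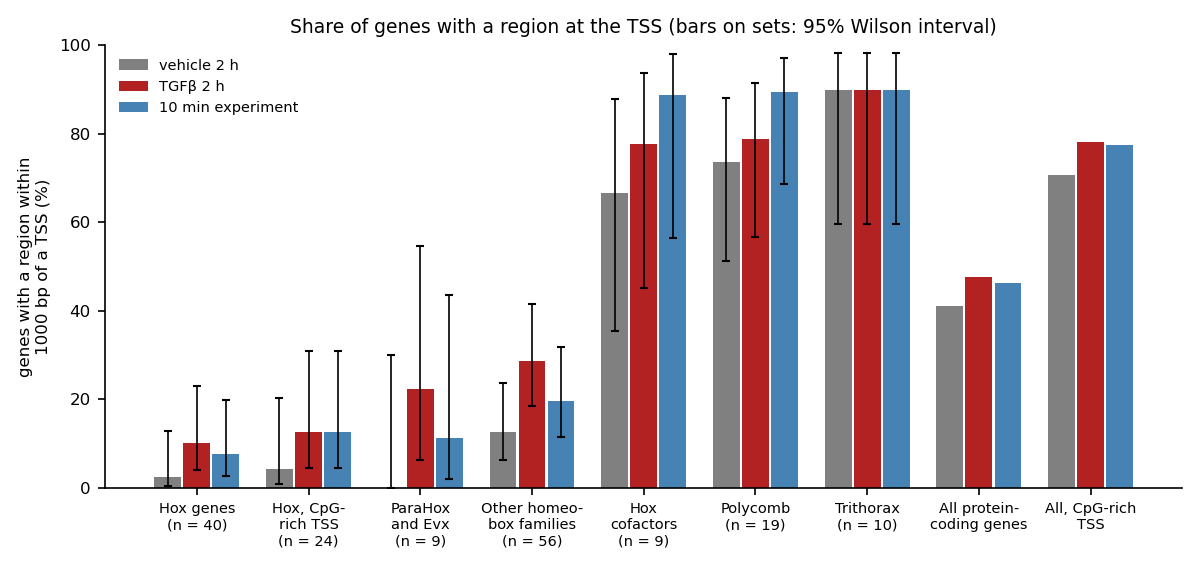
Percentage of genes with a region within 1000 bp of a TSS (y axis, from 0) for the Hox genes, the gene sets compared with them and all protein-coding genes (x axis), in the vehicle, TGFβ and 10 min lists. Error bars are 95% Wilson intervals and n is the number of gene records. Hox genes stand at 2.5, 10 and 7.5%, below all genes at 41, 47.6 and 46.3%.

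Sequence motifs were searched within 200 bp of the centre of each locus, on both strands. AP-1 motifs (TGACTCA or TGAGTCA) were found at 0 of the 12 Hox loci, and were present in 27.4% of all vehicle, 32.0% of all TGFβ and 27.1% of all 10 min regions. SMAD motifs (GTCTAGAC or CAGACA), the letters read by the effectors of TGFβ signalling, were found at 4 loci, those in Ttll6, the Hoxc flank and the Hoxd3 intron among them. By list they were in 1 of 2 vehicle, 4 of 10 TGFβ and 1 of 5 regions of the 10 min list, against 28.6%, 35.0% and 28.9% of all regions. The homeobox motif TAATTA was found at 1 locus, in the gap between Hoxb13 and Hoxb9, and the HOX-PBX motif TGATTNAT and the CTCF motif at none. These numbers are too small to set the loci apart from their lists. At the 3 Hoxa loci the CpG observed/expected ratio about the centre was 0.59 to 1.03. At the other loci it ran from 0.13 (Hoxc flank) to 0.61 (Hoxb1). The median over all regions was 0.37 (vehicle), 0.25 (TGFβ) and 0.32 (10 min). No median was taken for regions at a TSS alone, such as those of Hoxa5 and Hoxa7. The Hoxa values were therefore not compared with promoters in general.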

How the data were processed

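ATAC-seq was performed in NMuMG cells, and the authors deposited peak lists in BED format made with MACS2 2.1.2 (per the labels) on mm9 and retained at an irreproducible discovery rate (IDR) of about 0.05. Reads had been trimmed, aligned and filtered with the ENCODE pipeline. The score deposited with each peak was the authors' scaled IDR (-125 times its log2, capped at 1000). The study describes replicates behind the IDR, but the labels give 1 sample per condition, so which agreement the score measures was not settled. A list has 1 line per summit. The vehicle, TGFβ and 10 min lists held 48339, 87916 and 75736 lines in 23070, 49585 and 29837 distinct intervals. The number of regions depends on depth and library quality as well as on accessibility. The column of 1 list, that of the 10 min experiment, was given to no single sample.

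Distinct intervals of at least 150 bp were merged over gaps under 1000 bp, and a region took its highest score. All intervals lay inside the 20 mm9 chromosomes, so the NCBIM37 genome and GENCODE vM1 were used. RefSeq gene names (GRCm38.p6) gave synonyms only. Overlap required 1 bp. Scripts used Python 3.11.15, scipy 1.17.1, numpy 2.4.6 and matplotlib 3.10.9 and were tested on simulated data. CTCF was searched as a degenerate consensus.

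Members and gene lists were chosen with earlier results of these data known. Hox genes are named with their calls, except 1 that enters the counts but is, with its regions and sequence, not reported here. The same holds for 1 cofactor. Regions named by rule were the widest of each list in each window, vehicle regions with no TGFβ overlap and TGFβ regions at the cap with no vehicle overlap (there were 0). The widest TGFβ region of each window without vehicle overlap and the widest region at a Hox TSS were shown as sequence. The other regions, and the sequences of Hoxa7 and the Hoxb flank, were added after their values were seen. Spi1, 1 of 13 intended markers of other cell types, was not found in the annotation. Alternatives were other widths, merging, scores, TSS windows, start sites, flanks and list lengths.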

Additional observations from a re-analysis of the deposited data

How the results depend on the processing

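Across 9 counts and ratios, 64 values were recomputed under alternative settings. Of these, 43 stayed close, which means within 1.5 times for a count and within the exact interval for the ratio, and 21 moved further. With a minimum width of 300 bp, the TGFβ list had 1 Hox gene with a region at the TSS, 1 absent from the vehicle list and 1 region in the windows, the 10 min list had 3 regions, TGFβ and vehicle regions stood in a ratio of 0.5 and 0 vehicle regions overlapped a TGFβ region. With peaks below the median score of the peaks deposited in their list left out, the TGFβ list had 1 Hox gene, the 10 min list 0 and the TGFβ list 0 that were absent from the vehicle list. The windows then held 1 vehicle, 1 TGFβ and 0 10 min regions, a ratio of 1. Cut to as many top-scoring regions as the vehicle list holds, the TGFβ list had 2 Hox genes, 1 of them absent from the vehicle list, and 2 regions, a ratio of 1. Without flanks the vehicle windows held 1 region and the ratio was 8. With flanks of 100 kb the vehicle list held 6 regions, 5 of them overlapping a TGFβ region, the 10 min list held 9, and the ratio was 2.5. The narrow intervals and low scores of the Hox regions account for the first 2 settings by construction. For the list length the cause was not tested. The vehicle list had 1 Hox gene with a region at the TSS under each TSS setting tried.

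No paired analysis was possible because each group had 1 sample and the values come from no test. With 1 list per condition, replicates could not be left out. Depth is unknown from the lists, and a site absent from a list was not shown to be closed.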
